A study of Mus musculus with 9 samples.

Results

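The genes described here encode the dystrophin and utrophin glycoprotein complex, which ties the actin cytoskeleton of a muscle cell to the matrix around it. They were measured in C2C12 cells, an established clonal line of mouse skeletal myoblasts that fuse into myotubes when serum is withdrawn. The members were every probe set annotated to exactly 1 of 10 gene symbols (Dmd, Utrn, Dag1, Sgca, Sgcb, Sgcd, Sgce, Sspn, Dtna and Sntb1), and they came to 27 probe sets, for 10 of the 15964 genes named on the arrays. All samples were of one kind, total RNA of cells held for 5 days in DMEM with 2% horse serum and penicillin/streptomycin at 37 °C, so no untreated, undifferentiated or mutant sample stands beside them. That RNA was read on 9 Affymetrix arrays, 3 replicates on each of 3 designs (U74Av2, U74Bv2 and U74Cv2) that carry different probe sets. Nothing in the labels ties a replicate to a culture of its own, and p-values here measure only the spread between these arrays, which may be technical.

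Dystrophin and its homologue utrophin are long rod proteins that bind actin at one end and beta-dystroglycan at the other. Dystroglycan spans the membrane and carries the sugar chains that bind laminin and agrin, the sarcoglycans and sarcospan stabilise it there, and dystrobrevins and syntrophins attach signalling proteins on the inner side. Loss of dystrophin causes Duchenne muscular dystrophy, and loss of alpha-, beta- or delta-sarcoglycan causes limb-girdle dystrophies. In developing muscle utrophin lies along the whole fibre membrane, whereas in mature fibres it is concentrated at the neuromuscular junction.

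A signal is the deposited MAS5 intensity of a probe set, in arbitrary linear units. Controls for sequences that mouse RNA lacks gave a background limit for each array, their 95th percentile. A probe set counted as detected if all 3 arrays of its design exceeded their limits, and a gene if at least 1 of its probe sets did. In replicates 1, 2 and 3 the limit was 206, 280.4 and 256 for U74Av2, 498, 430.0 and 963 for U74Bv2, and 1034, 725 and 786 for U74Cv2. Probes differ in how strongly they bind, and no gene is therefore ranked against another. A call of not detected does not show that the RNA was absent, and fewer cells with a transcript cannot be told apart from less of it per cell.

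Of the 10 genes, 8 were detected, against 62.0% of all genes on the arrays. Utrophin, dystroglycan, alpha-, beta- and epsilon-sarcoglycan, sarcospan, alpha-dystrobrevin and beta-1-syntrophin gave signal, and dystrophin and delta-sarcoglycan did not. By probe sets, 10 of 14 were detected on U74Av2 (58.2% of all probe sets of that design), 6 of 6 on U74Bv2 (43.8% of all) and 4 of 7 on U74Cv2 (31.6% of all). Taking each gene's probe set with the highest mean, the median member lay at 7.81 times the limit and the median of all genes at 2.75 times. Genes with more probe sets have more chances of a call and of a high maximum. These medians were not matched for the number of probe sets, and the limits differed between designs. Of all genes with a single probe set 48.0% were detected, and of the 4 such members 2 were (Sgce and Sspn). The 6 members with more than 1 probe set were all detected, and so were 70.7%, 81.5%, 89.0% and 94.7% of all genes with 2, 3, 4 and 5 probe sets, so that count is near the background.

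A moderated one-sample test of each probe set's log2 signal over the limit (limma) was fitted over each whole design and adjusted by the Benjamini-Hochberg method. It called 10 of the 14 member probe sets on U74Av2 above the limit and 2 below (55.8% and 28.7% of all probe sets), 5 of 6 above and 0 below on U74Bv2 (38.0% and 29.2%), and 4 of 7 above and 3 below on U74Cv2 (25.7% and 41.2%). The limit of an array is shared by all its probe sets, so their errors are not independent, most of all on U74Bv2, where the limits differed most. On U74Bv2 the 6 member probe sets had the same standard error, 0.482 on the log2 scale. Their p-values thus rest on a spread pooled over the design and not on that of each probe set. With the limit held at its geometric mean over the arrays, an alternative chosen after seeing the data, the test called 19 above and 5 below, the same 19 and 5 as before. Its adjusted p-values moved both ways, from 2.7e-12 to 0.000321 for Utrn 112767_s_at and from 0.31 to 0.0517 for Sgcb 164981_f_at, and they are best read as calls rather than as sizes.

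**Figure D1:**
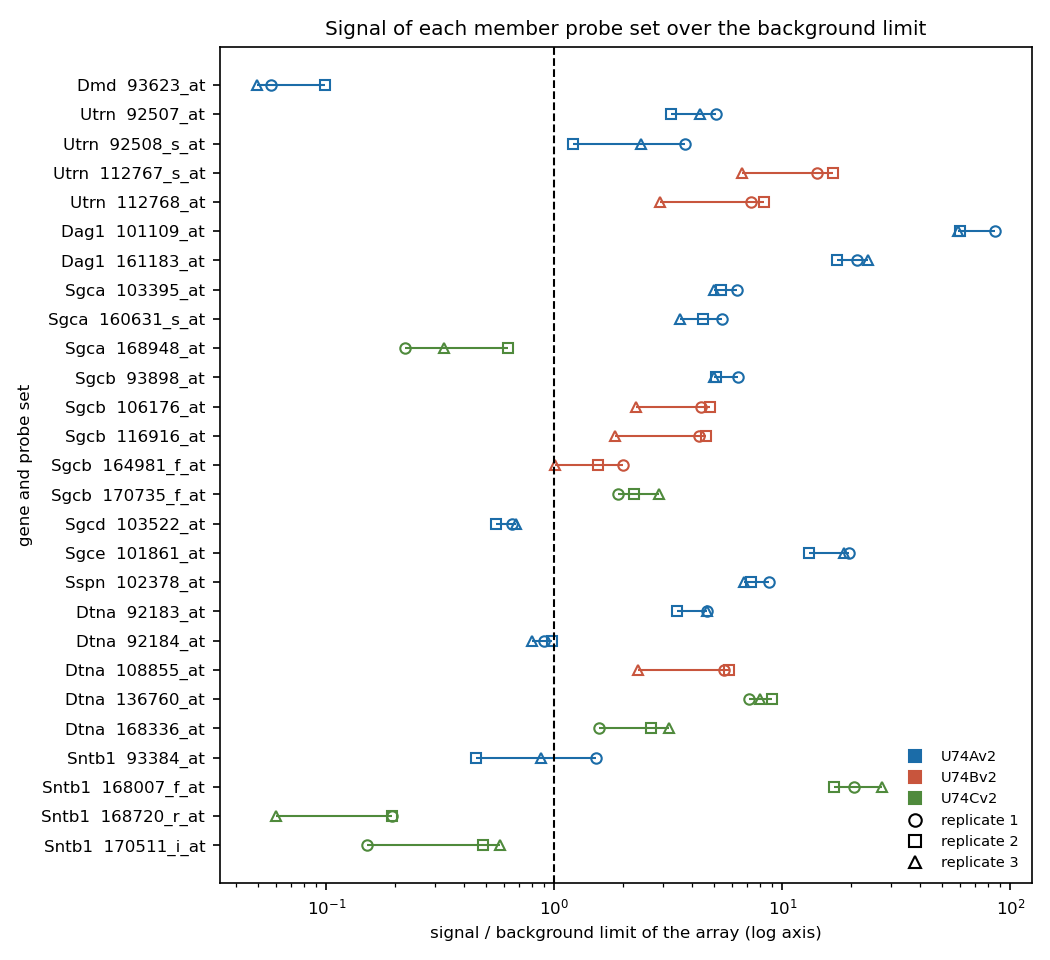
Signal over the background limit of its own array (log axis) for the 27 member probe sets, 3 replicate arrays each, coloured by array design, with a bar from the lowest to the highest array. The dashed line is the limit: the probe set of Dmd lies far to its left on all 3 arrays, the 4 of Utrn to its right, and the 4 of Sntb1 on both sides.

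The RefSeq windows upstream of dystrophin, utrophin and dystroglycan are shown because these 3 genes span the range of the calls, from not detected to far above the limit. Each runs from 250 bases before to 50 after an annotated start (GRCm38.p6), 5′ to 3′ on the strand of the gene, with matches to the E-box CANNTG in capitals. This is the motif that myogenic bHLH factors bind, and it reads the same on both strands. Dmd and Dag1 have a second window each, and the one furthest upstream is shown. The second Dmd window differed from the first, with 0 E-box matches, 3 GC boxes and a GC content of 62.7%.
Dmd, chrX:82948620-82948919, plus strand: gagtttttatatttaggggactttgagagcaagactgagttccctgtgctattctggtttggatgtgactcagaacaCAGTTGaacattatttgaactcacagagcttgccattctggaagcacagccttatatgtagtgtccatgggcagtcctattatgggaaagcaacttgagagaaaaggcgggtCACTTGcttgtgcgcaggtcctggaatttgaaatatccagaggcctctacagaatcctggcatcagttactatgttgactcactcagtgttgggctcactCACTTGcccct
Utrn, chr10:12861686-12861985, minus strand: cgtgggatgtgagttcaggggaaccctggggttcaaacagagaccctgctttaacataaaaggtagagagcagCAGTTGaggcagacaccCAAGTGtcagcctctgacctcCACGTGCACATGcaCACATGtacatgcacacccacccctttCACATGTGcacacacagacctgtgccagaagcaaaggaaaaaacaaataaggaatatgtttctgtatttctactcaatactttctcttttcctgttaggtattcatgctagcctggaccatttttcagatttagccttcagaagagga
Dag1, chr9:108263909-108264208, minus strand: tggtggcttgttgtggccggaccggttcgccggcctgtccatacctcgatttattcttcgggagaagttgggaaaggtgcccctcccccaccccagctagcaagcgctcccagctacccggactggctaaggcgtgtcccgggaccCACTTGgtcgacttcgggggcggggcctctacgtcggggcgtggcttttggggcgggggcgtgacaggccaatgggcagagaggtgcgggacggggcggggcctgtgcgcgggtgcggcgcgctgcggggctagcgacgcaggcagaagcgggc

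The Dmd window held 3 E-box matches, the Utrn window 7, of which some overlap, and the Dag1 window 1. A match was found in 7 of the 10 windows examined, which belong to 7 members. It was found in 72.3% of all 32851 promoter windows, so its presence sets no member apart. Any member window on 1 chromosome was left out of the member counts, whereas the shares of all windows include that chromosome. The GC content was 45.7% in this Dmd window, 46.0% in the Utrn window and 69.7% in the Dag1 window, against a median of 52.7% over all windows. The GC box GGGCGG, searched on both strands, was present in 5 of the 10 member windows and in 35.7% of all. The Dag1 windows overlap, so their E-box match and some GC boxes were counted in both. The N-box core TTCCGG was in 0 of the 10 and in 14.9% of all, and the CArG box was in 1, the Dmd window shown, and in 1.63% of all. These are matches of letters in short windows, and binding was not measured. Whether the Utrn window covers the promoter on which the regulators named below act is not given in the sources used here.

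Dystrophin was not detected. Its only probe set, 93623_at, read 11.8, 27.6 and 12.7 on the U74Av2 arrays of replicates 1, 2 and 3. All 3 values lay far under the limit, at a mean of 0.0684 ± 0.0262 times it (SD, n = 3), and the test placed the probe set below the limit (adjusted p = 5.61e-06, limma). Of the 20 control probe sets for absent sequences, 20, 14 and 20 read higher than Dmd on the same arrays. Only 5.93% of all probe sets not detected on this design had a lower mean. The gene is among the longest known and makes several transcripts from separate promoters. Which exons the probes of 93623_at cover is not given in the sources used here, so the value speaks for that probe set alone.

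Utrophin was detected by each of its 4 probe sets, as were all the probe sets of 10.9% of the genes that have 4. On U74Av2, 92507_at read 1058, 912 and 1116 in replicates 1, 2 and 3, which is 4.25 ± 0.95 times the limit (SD, n = 3; adjusted p = 9.92e-05, limma). These 3 values lay within 1.22-fold of each other. The second U74Av2 probe set, 92508_s_at, read 768, 337 and 614, with replicate 2 at less than the others, and lay at 2.44 ± 1.27 times the limit (adjusted p = 0.0128). Its SD of log2 signal, 0.61, exceeded that of 98.6% of the detected probe sets of the design. It is the least secure utrophin call, since the 337 of replicate 2 lay at the 42.4th percentile of its array, and without replicate 1 it did not pass the test (adjusted p = 0.127). Both U74Bv2 probe sets lay well above the limit on each array. The signal of 112767_s_at was 7084, 7134 and 6405, at a mean percentile of 95.3 within the array and 12.5 ± 5.2 times the limit (adjusted p = 2.7e-12). For 112768_at the arrays gave 3646, 3570 and 2799, at 6.17 ± 2.87 times the limit (adjusted p = 9.67e-07). In both cases replicate 3 was lowest, by signal and still more by multiple, since its limit was higher. The _s_at suffix marks probes that match more than 1 transcript.

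Dystroglycan, the laminin receptor made from the single gene Dag1 and cut into an outer alpha and a membrane-spanning beta chain, was detected by both its probe sets. The signal of 101109_at was 17617, 16860 and 15082 on the U74Av2 arrays, with replicate 3 lowest, at 68.2 ± 15.1 times the limit (SD, n = 3; adjusted p = 7.76e-07, limma). These values lay between the 97.4th and 98.0th percentiles of their arrays. The other, 161183_at, read 4374, 4877 and 6060, here with replicate 3 highest, at 20.8 ± 3.1 times the limit (adjusted p = 1.87e-06). The order of the replicates was thus opposite in the pair. None of the 20 controls for absent sequences reached either probe set on any array.

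The sarcoglycans were detected for 3 of the 4 genes measured here. Alpha-sarcoglycan (Sgca), the muscle-specific type I subunit, was detected by 2 of 3 probe sets. On U74Av2, 103395_at read 1295, 1503 and 1290.5, at 5.56 ± 0.65 times the limit (SD, n = 3; adjusted p = 2.43e-05, limma), and 160631_s_at read 1117, 1263 and 911, at 4.49 ± 0.94 times (adjusted p = 7.26e-05). Replicate 2 was highest and replicate 3 lowest in both. The third probe set, 168948_at on U74Cv2, read 230, 455 and 259, all under the limits of that design, at 0.393 ± 0.210 times (adjusted p = 0.0158, below, and 0.0797 without replicate 1). Which sequence each of the 3 probe sets reads is not given in the sources used here.

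Beta-sarcoglycan (Sgcb), a type II subunit needed for the assembly of the others, was detected by all 5 of its probe sets on all 3 designs. That held for 9.60% of genes with 5 probe sets. The signal of 93898_at on U74Av2 was 1313, 1432 and 1284, at 5.50 ± 0.76 times the limit (SD, n = 3; adjusted p = 2.66e-05, limma). On U74Bv2, 106176_at read 2189, 2073 and 2203, with an SD of log2 signal of 0.048, the smallest among the detected members, and 116916_at read 2153, 1993 and 1781, with replicate 3 lowest. Both passed the test (adjusted p = 0.000261 and 0.000696, limma), which on U74Bv2 used a spread pooled over the design. The fourth, 164981_f_at, read 996, 670.3 and 968, at 1.52 ± 0.50 times the limit, and did not pass the test (adjusted p = 0.31, and 0.0391 without replicate 3). It was the member just inside the rule, at 1.00 times the limit in replicate 3. The fifth, 170735_f_at on U74Cv2, read 1959, 1625 and 2257, at 2.34 ± 0.49 times the limit (adjusted p = 0.0143, and 0.0538 and 0.127 without replicate 2 or 3).

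Delta-sarcoglycan (Sgcd), which pairs with beta-sarcoglycan in the core of the complex, has 1 probe set on these arrays and was not detected. The signal of 103522_at was 134, 155 and 174, under the limit on each array, at 0.628 ± 0.066 times it (SD, n = 3; adjusted p = 0.023, limma, below). Between 3 and 4 of the 20 absent-sequence controls read higher, and 67.9% of the undetected probe sets of U74Av2 had a lower mean. Its signal thus lay in the upper part of the undetected range. The call below the limit was lost without replicate 2 or 3 (adjusted p = 0.0906 and 0.146) and with a trended variance (0.106). Dmd and Sgcd were not detected under any of the 8 alternatives run for the detection rule. Neither exceeded the limit on any array, so 2 of 3 arrays, leaving out a replicate or plain _at names could not have changed that. The other limits tried were higher on U74Av2. Only quantile normalization could have changed these calls.

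Epsilon-sarcoglycan (Sgce), the widely expressed paralogue of alpha-sarcoglycan, was detected by its 1 probe set. On 101861_at the arrays gave 4040.4, 3653 and 4776, at 17.1 ± 3.6 times the limit (SD, n = 3; adjusted p = 2.85e-06, limma), with replicate 2 lowest. Sarcospan (Sspn), a small protein with 4 membrane-spanning segments that binds the sarcoglycans, was likewise detected by its only probe set. The signal of 102378_at was 1805, 2040.4 and 1732, at 7.60 ± 1.05 times the limit (adjusted p = 1.05e-05), with replicate 3 lowest. The 6 readings of this pair of genes lay between the 74.1st and 90.4th percentiles of their arrays.

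On the cytoplasmic side, alpha-dystrobrevin (Dtna), a relative of dystrophin that binds syntrophins, was detected by 4 of its 5 probe sets. On U74Av2, 92183_at read 961, 967 and 1203, at 4.27 ± 0.71 times the limit (SD, n = 3; adjusted p = 7.58e-05, limma). Its neighbour 92184_at read 186, 272 and 206, at 0.892 ± 0.085 times, and was the member just outside the rule: its 3 values lay between 0.802 and 0.972 times the limit, and the test called it neither above nor below (adjusted p = 0.495). On U74Bv2, 108855_at read 2768, 2496 and 2230.4, at 4.56 ± 1.95 times the limit (adjusted p = 4.71e-05), with replicate 3 lowest. The U74Cv2 pair were both detected, 136760_at at 7355, 6521 and 6271 (adjusted p = 0.000583) and 168336_at at 1618, 1930.5 and 2511 (adjusted p = 0.0188, and 0.0788 and 0.132 without replicate 2 or 3). The highest array of the first was 1.17 times its lowest, and that of the second 1.55 times. The gene makes several splice forms that differ at their 3′ ends, and which of them each probe set reads is not given in the sources used here.

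Beta-1-syntrophin (Sntb1), a PDZ-domain adaptor, rested on 1 of its 4 probe sets. That probe set, 168007_f_at on U74Cv2, read 21205, 12257 and 21534, at 21.6 ± 5.3 times the limit (SD, n = 3; adjusted p = 0.000339, limma) and between the 97.1st and 98.6th percentiles of its arrays. Replicate 2 was well under the other arrays, and the SD of log2 signal of 0.46 exceeded that of 85.3% of the detected probe sets of the design. The other three disagreed with it. The U74Cv2 probe sets 168720_r_at and 170511_i_at lay at 0.149 ± 0.078 and 0.405 ± 0.224 times the limit, on 0 of 3 arrays above it, and the test placed both below (adjusted p = 0.00214 and 0.0266, the second 0.0656 and 0.0515 without replicate 1 or 2). On U74Av2, 93384_at read 312, 127 and 224 and passed the limit in replicate 1 alone, at 0.95 ± 0.54 times (adjusted p = 0.515). The _f_at suffix marks probes that match a family of sequences, _r_at a choice of probes under relaxed rules and _i_at an incomplete set. On U74Cv2, 45.8% of all _f_at probe sets were detected, against 29.1% of those with a plain _at name. Without probe sets of marked names, Sntb1 was not detected and 7 of the 10 genes were. A call on 1 of 4 probe sets was found for 22.97% of the genes with that number.

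**Figure D2:**
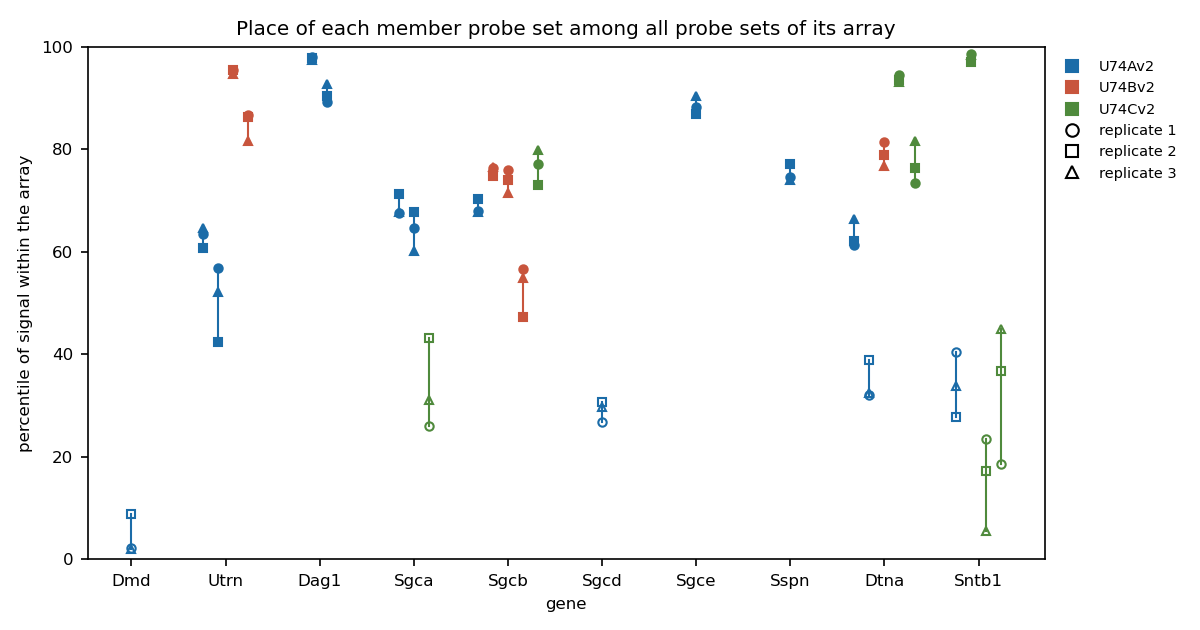
Percentile of each member probe set's signal among all probe sets of its array, by gene, with 1 symbol per replicate array, colour for the array design, filled symbols for detected probe sets and open ones for those not detected. The 3 arrays of a probe set stay close together at the top of the range and spread further at the bottom, and the probe sets of Sntb1 and Dtna lie far apart.

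The median spread between replicates was smaller for the detected members than for the others, with exceptions. Among the 20 detected members the SD of log2 signal over the 3 arrays had a median of 0.170 and ranged from 0.048 (Sgcb, 106176_at) to 0.613 (Utrn, 92508_s_at), while for the 7 not detected it was 0.655. For comparison, detected probe sets of the whole design had a median SD of 0.154 on U74Av2, 0.178 on U74Bv2 and 0.238 on U74Cv2, and the others 0.577, 0.518 and 0.673. Of the detected members, 11 of 20 had an SD under the median of detected probe sets of like signal. Sntb1 168007_f_at, high in signal, had an SD of 0.463, and the undetected Sgcd 103522_at had 0.193. The rule of 3 arrays above the limit itself leaves out dim probe sets that vary. No single array was low throughout. The lowest of the 3 arrays was replicate 1 for 3 detected members, replicate 2 for 7 and replicate 3 for 10. On U74Bv2 it was replicate 3 for 4 of the 6 members, both of Utrn, that of Dtna and 1 of Sgcb, against 36.7% of all detected probe sets there. Per the experiment records, replicate 1 of U74Bv2 and of U74Cv2 went through a different fluidics station from the rest, and that of U74Cv2 was a chip of another lot. Without replicate 1 the same 20 probe sets were detected, but the rule could not lose any of them when an array was left out. The limma test without replicate 1 called 18 member probe sets above the limit and 3 below, against 19 and 5 with all arrays. An effect of the station or the lot was not tested.

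**Figure D3:**
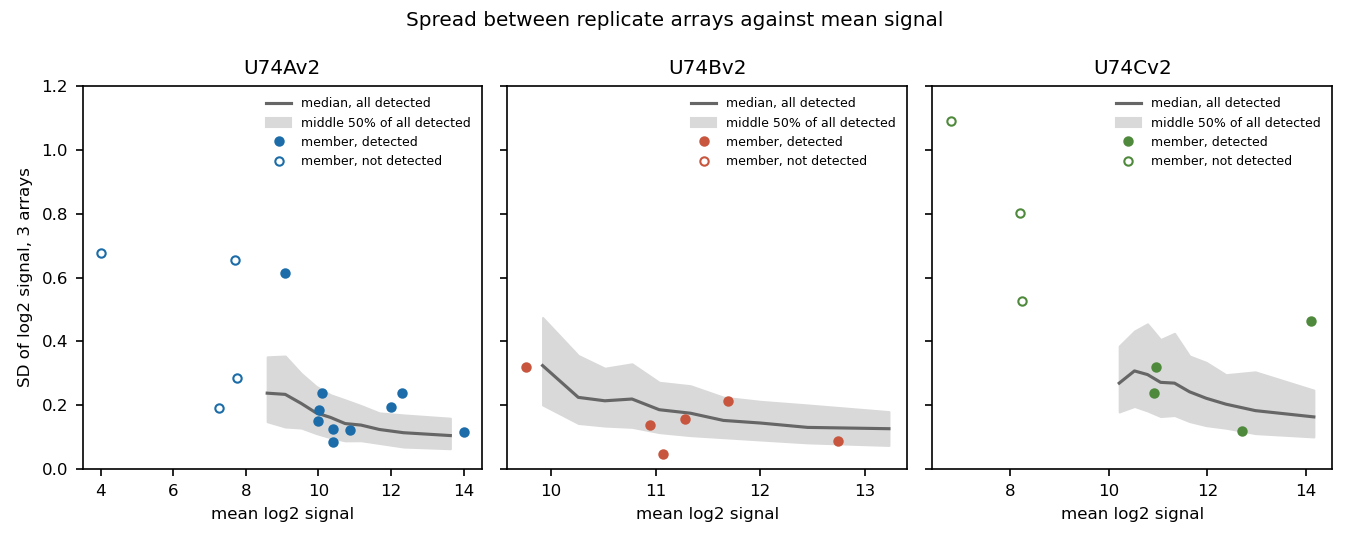
SD of log2 signal over the 3 replicate arrays against mean log2 signal, by array design, for detected member probe sets (filled) and those not detected (open). The line and band give the median and the middle 50% of all detected probe sets in 10 bins of mean signal; most detected members lie in or near the band, and those not detected lie to its left, most of them higher.

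Other genes of the complex and its partners were taken from lists of known function. Here and below, each multiple is that of the gene's highest probe set, and its other probe sets may not be detected. For all genes on the arrays the detected share was 62.0%. It ran from 48.0% of genes with 1 probe set to 94.7% of those with 5. The counts of the lists are to be read beside these shares. Of the 5 other subunits analysed, 3 were detected: Sntg2, a gamma-syntrophin, at 2.98 ± 0.83 times the limit, Drp2, a dystrophin-related protein of Schwann cells, at 2.07 ± 0.57 times, and Nos1, the nitric oxide synthase held by syntrophin, at 1.54 ± 0.38 times (SD, n = 3). All 3 lay close to the limit. Sntg2 was detected by 1 of its 3 probe sets, an _f_at probe set, Nos1 by 1 of 2 and Drp2 by 1 of 1. Sntb2, beta-2-syntrophin, and Dtnb, beta-dystrobrevin, were not detected, at 1.44 ± 0.58 and 0.309 ± 0.105 times.

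Outside the cell, 9 of the 10 matrix ligands of dystroglycan and its partners were detected, against 62.0% of all genes. Bgn, the proteoglycan biglycan, lay at 291 ± 48 times the limit, Lama4, a laminin alpha chain, at 45.8 ± 10.0 times, and Lamb2, a laminin beta chain, at 44.6 ± 9.8 times (SD, n = 3). Both laminin values are from _r_at probe sets. Lama4 was detected by that 1 of its 3 probe sets, and Lamb2 by 3 of 4. The one ligand not detected was Lama1, a laminin chain of early embryos, at 1.21 ± 0.74 times. Of the enzymes that build the sugar chain of dystroglycan, 13 of 14 were detected. Among them were Dpm2, a subunit of dolichol-phosphate mannose synthase, at 15.1 ± 3.2 times, B4gat1, which primes the laminin-binding chain, at 12.3 ± 4.7 times, and Dpm1, the catalytic mannose synthase subunit, at 11.03 ± 2.82 times. Dpm1 was detected by 1 of its 2 probe sets. Gmppb, which supplies GDP-mannose, was not detected, at 0.573 ± 0.162 times.

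Among the linkers of the membrane and the costamere, the band that joins the Z-disc to the membrane, 10 of 13 genes were detected. The share of all genes was 62.0%. Itgb1, the integrin beta-1 chain, lay at 146 ± 22 times the limit, vinculin (Vcl) at 96.1 ± 19.9 times and Itga7, the laminin-binding integrin alpha chain of muscle, at 30.9 ± 7.1 times (SD, n = 3). The intermediate filament genes Krt19, Krt8 and Synm were not detected, at 0.124 ± 0.038, 1.30 ± 1.45 and 1.66 ± 0.73 times. Of the regulators of the utrophin promoter, 3 of 4 were detected. Gabpb1 and Gabpa, the subunits of the GA-binding protein that activates it, lay at 12.9 ± 1.3 and 6.39 ± 1.61 times, and Erf, a repressor of it, at 7.50 ± 1.64 times. Ppargc1a, a coactivator of it, was not detected, at 0.383 ± 0.066 times. Gabpa was detected by 2 of its 5 probe sets and Erf by 1 of 3, while Gabpb1 was detected by 5 of 5. The Itgb1 and Gabpb1 values are from _f_at probe sets.

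**Figure D4:**
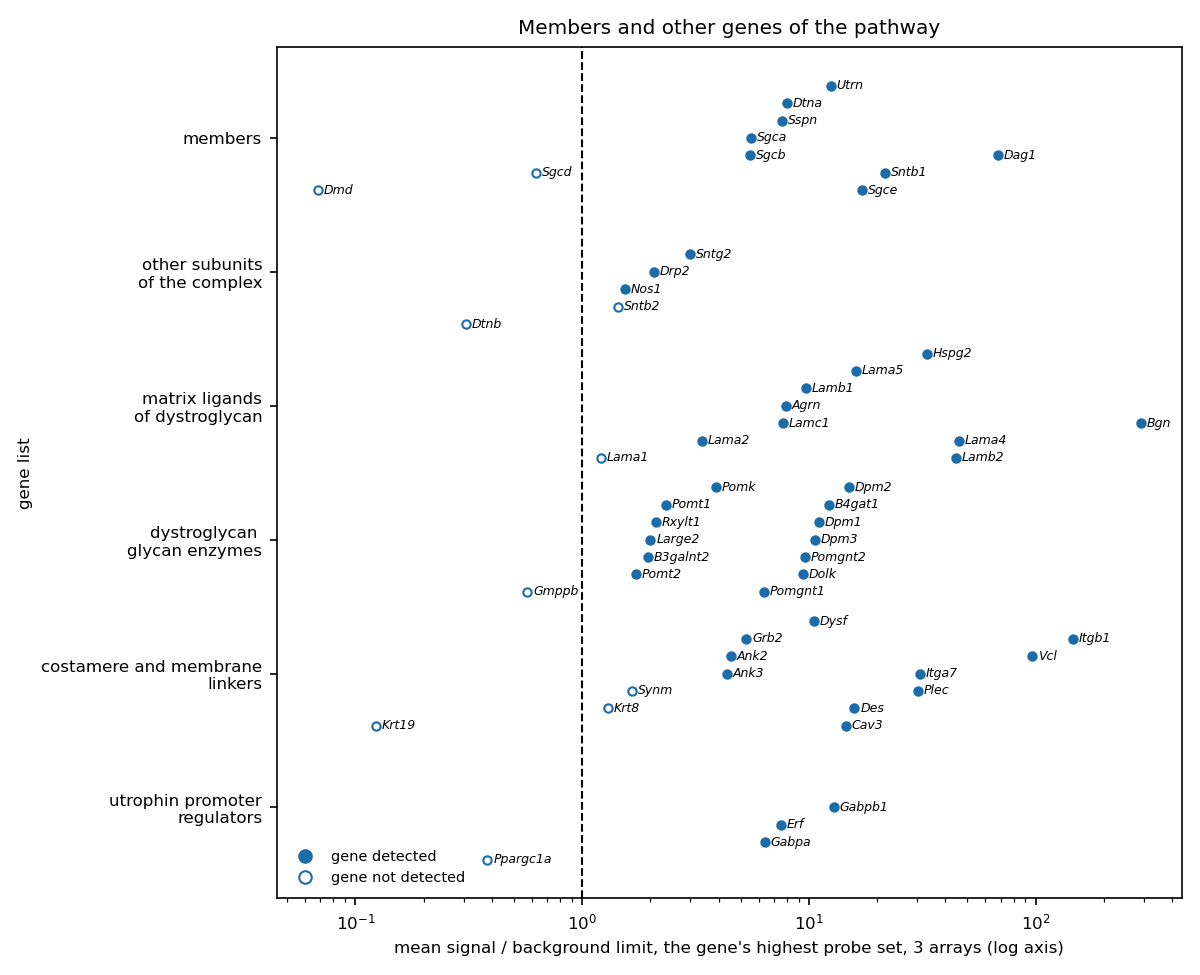
Mean signal over the background limit (log axis, 3 arrays) of each gene's highest probe set, for the 10 members and for 5 lists of related genes, filled where the gene was detected. The dashed line is the limit; Dmd and Krt19 lie far to its left, and Bgn and Itgb1 far to its right.

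The label of the cells was checked against markers. All 10 myotube markers measured were detected, among them Acta1, the highest, at 298 ± 31 times the limit and Myog at 66.7 ± 11.7 times (SD, n = 3). The lowest was Ttn at 3.23 ± 1.12 times. Other cell types also use parts of this complex. Of their markers, 4 of 5 for smooth muscle, 4 of 8 for fibroblasts and 2 of 5 for Schwann cells and nerve were detected. For endothelial cells 2 of 6 were detected and for blood 1 of 4, against 62.0% of all genes. For smooth muscle, Acta2, an actin that developing skeletal muscle also makes, lay at 226 ± 33 times the limit, Smtn, Myh11 and Cnn1 lay between 2.70 and 4.58 times, and Myocd was not detected. For fibroblasts, Col1a1 lay at 72.8 ± 6.4, Dcn at 25.2 ± 4.2, Pdpn at 22.2 ± 3.6 and Pdgfra at 2.70 ± 0.82 times, and Lum, Thy1, Tcf21 and Dpt were not detected. For Schwann cells and nerve, Sox10 lay at 8.37 ± 2.03 and Nefl at 2.30 ± 0.40 times, and Mbp, S100b and Snap25 were not detected. The endothelial markers Pecam1 and Kdr lay at 1.39 ± 0.42 and 1.31 ± 0.30 times, with Flt1, Emcn, Tek and Cdh5 not detected. Of the blood markers Cd68 lay at 1.44 ± 0.24 times, and Adgre1, Cd3e and Ptprc were not detected. Myh11, Pdgfra and Nefl were each detected by 1 of 3 probe sets, and Kdr and Cd68 by 1 of 2. The part of any of these other cell types in the members' signals was not tested.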

How the data were processed

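C2C12 RNA was measured on 9 arrays. Per the submitters' processing notes, the authors ran MAS5, and each deposited value is a linear intensity of 1 probe set; no version or setting is stated. The 2% trimmed mean was 1500.33 to 1500.95 on each array, and the designs were analysed apart. Precision is limited by 3 arrays per design.

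The members and lists were chosen with earlier results of these data known. Symbols came from the platform annotation (probe sets with 1 symbol only). The limit used 20, 20 and 17 control probe sets (Dap, Lys, Phe, Thr, Trpn and reverse-strand), leaving out families above the design's median signal. Log2(signal / limit) was tested against 0 with limma 3.58.1 in R 4.3.3, two-sided, over all non-control probe sets of a design. Benjamini-Hochberg adjustment was used at 0.05. A check on simulated data drew the noise independently for each probe set, so it could not test an error shared through the limit. Summaries were made with pandas 2.3.3 and numpy 2.4.6 in Python 3.11.15, and plots with matplotlib 3.10.9. Named were all members and, of each list, the up to 3 detected genes with the highest multiple and those not detected. Of the other cell types' markers all are named, and of the myotube markers a few examples, chosen after their values were seen. Promoter windows are from RefSeq, GRCm38.p6.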

Additional observations from a re-analysis of the deposited data

How the results depend on the processing

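The same 8 genes were detected under 7 of 8 alternatives: the array's median signal or the highest control as the limit, 2 of 3 arrays, quantile normalization, and leaving out replicate 1, 2 or 3. With 2 of 3 arrays or without a replicate, no gene detected on all 3 arrays can be lost. Dmd and Sgcd exceeded the limit on no array, so the result of those settings was fixed in advance. With plain _at probe sets alone 7 were detected, without Sntb1, and the median percentile of the member probe sets rose from 68.9 to 73.8. With the median signal as the limit 18 of 27 probe sets were detected, without Utrn 92508_s_at and Sgcb 164981_f_at, and 92508_s_at turned from a log2 multiple of 1.14 to -0.0036 (adjusted p = 0.99, limma). With the highest control as the limit 19 were detected.

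In the 10 alternatives run for limma, 17 to 19 probe sets were called above, 1 of which (the limit held at its geometric mean) was chosen after seeing the data. The number below was between 0 and 6, with 0 where probe sets under the limit on all 3 arrays were left out before the fit. The probe sets 168336_at of Dtna and 170735_f_at of Sgcb lost the call above with the highest control as the limit and without replicate 2 or 3, and 92508_s_at lost it without replicate 1. The cause was not tested. No paired analysis was possible because each design holds 1 group and no contrast between groups was made. The height of the limit on U74Bv2 and U74Cv2 bounds what could be detected there.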
